A study of Mus musculus with 16 samples.

Results

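Mbd2 and 9 genes of glucose use were followed across mouse embryonic stem cells (ESCs) that lack Dnmt1, or Dnmt1 together with Dicer1. The genes were Mbd2, the glucose transporters Slc2a1 and Slc2a3, the hexokinases Hk1 and Hk2, the phosphofructokinase Pfkp, the aldolase Aldoa, the phosphoglycerate kinase Pgk1, the lactate dehydrogenase Ldha and the pyruvate dehydrogenase kinase Pdk1. They were taken by symbol from a table of 26127 genes, each symbol matched 1 row, and 10 of 10 passed the filter on low values that left 12892 genes for testing.

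Total RNA depleted of ribosomal RNA had been sequenced in 16 libraries: 8 of wild-type cells (WT), 4 of Dnmt1-/- cells (Dnmt1 KO) and 4 of Dicer/Dnmt1 -/- cells (Dicer/Dnmt1 KO). Each library carries a number and a letter (WT 1A to 4B, the knockouts 1A to 2B), and the labels explain neither, nor do they state the days since deletion. All were labelled as ESCs of the E14 background, whereas the methods of the study give another strain for the parent of its Dnmt1 loxP/loxP line, in which tamoxifen activates Cre. CRISPR-made lines of the study came from colonies of single cells, and it describes conditional as well as constitutive loss of Dicer, so the line behind each knockout library is uncertain and may be 1 clone. The cells grew in serum and LIF with or without feeder cells. Nothing says that libraries are separate cultures, so p-values measure the spread between these libraries only.

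Glycolysis turns glucose into pyruvate. Slc2a1 and Slc2a3 bring glucose in, hexokinases trap it as a phosphate, phosphofructokinase commits it to the pathway, and aldolase, phosphoglycerate kinase and later enzymes split and oxidize the sugar. Lactate dehydrogenase A turns pyruvate into lactate, and Pdk1 holds pyruvate back from the mitochondria by inhibiting pyruvate dehydrogenase. Mouse ESCs in serum rely heavily on this pathway, and Myc family and hypoxia-inducible factors are known to raise transcription of many of its genes. Mbd2 is a reader of methylated CpG sites that recruits the NuRD repressor complex. It is known as a target of the miR-290 family of ESC microRNAs (miRNAs), and through that link as a brake on Myc and on glycolysis. Dicer cuts miRNA precursors, while Dnmt1 copies DNA methylation at cell division, so the double knockout bears on the making of that family as well as on the methylation that Mbd2 reads.

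The seed of a miRNA, its bases 2 to 8, pairs with sites in messages. Of the 11 mature 3p miRNAs of the miR-290 and miR-302 clusters found in RefSeq (build GRCm38.p6), 5 shared the seed AAGUGCU. They are shown because their seed defines the site searched for, with the seed in capitals. miR-291a-3p, miR-294-3p and miR-295-3p lie between chr7:3218968 and chr7:3220837, and miR-302b-3p and miR-302d-3p between chr3:127545275 and chr3:127545687, all on the plus strand.
miR-291a-3p: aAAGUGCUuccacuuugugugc
miR-294-3p: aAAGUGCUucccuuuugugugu
miR-295-3p: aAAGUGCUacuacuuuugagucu
miR-302b-3p: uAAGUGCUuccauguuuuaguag
miR-302d-3p: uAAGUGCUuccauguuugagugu

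The complement of this seed, AGCACTT, was searched on the sense strand of the longest annotated 3′ UTR of each gene. It was present in 4 of the 10 genes, namely Mbd2, Hk1, Pfkp and Ldha, with 1 match each. Of 19915 genes with a 3′ UTR, 13.4% held it. Among genes with a 3′ UTR of similar length (the shorter at least 0.8 of the longer), the share was 4.40% for Mbd2, whose 3′ UTR has 480 bases, 4.42% for Ldha, 10.9% for Hk1 and 18.9% for Pfkp. The 6-base core GCACTT, which every AGCACTT contains, added Pdk1 and was held by 26.9% of all genes. The matches in Hk1 (chr10:61731717-61731741, minus strand), Pfkp (chr13:6580617-6580641, minus strand) and Ldha (chr7:54110514-54110538, plus strand) are printed with their flanks in build NCBIM37, the match in capitals.
Hk1: tatgcctatagtcccAGCACTTggg
Pfkp: acatagttatttatcAGCACTTtat
Ldha: tcttccccgtgtcctAGCACTTcac

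The genes with a match did not move together. Mbd2 was higher in Dicer/Dnmt1 KO than in either other group, Hk1 was higher than in Dnmt1 KO, Pfkp was lower than in WT, and Ldha was lower than in both (each at an adjusted p under the threshold). A match is a description of the sequence, and binding was not measured.

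The libraries held 31.5 to 52.5 M reads, and each of the 10 genes had between 360 and 58341 reads in a library. Values are log2 of reads per 1 M mapped reads (log2 RPM). The targeted genes were checked first. Dnmt1 lay at 7.40 to 7.66 log2 RPM in WT 1A to 3B, at 5.69 and 5.55 in the libraries labelled WT 4A and WT 4B, and at 4.17 to 4.64 in the 8 knockout libraries. Dicer1 lay at 3.68 to 4.06 in Dicer/Dnmt1 KO, beside 4.56 to 5.68 in WT, where WT 4A and WT 4B were again lowest, and 5.28 to 5.68 in Dnmt1 KO. Because WT 4A and WT 4B stood apart, the differences and paralog ratios of the 10 genes were repeated without them.

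Of 10 pluripotency markers, 10 were above 1 RPM in every library, with a summed level of 2078 to 3471 RPM in WT, 1896 to 2535 RPM in Dnmt1 KO and 2128 to 2453 RPM in Dicer/Dnmt1 KO. Against WT, 3 of the 10 fell in Dnmt1 KO (Sox2, Nanog and Fgf4), where 17.5% of all tested genes fell. In the double knockout 2 fell and 1 rose, where 30.1% of all tested genes fell and 31.9% rose. The summed level of 14 feeder fibroblast markers was 70.4 to 127 RPM in WT, 165 to 187 RPM in Dnmt1 KO and 153 to 258 RPM in Dicer/Dnmt1 KO, with Dcn and Lum under 1 RPM in every library, and of 12 tested 7 and 10 rose against WT (4 and 8 with A and B averaged). The summed level of 8 primitive endoderm markers was 84.8 to 168 RPM, 224 to 339 RPM and 209 to 239 RPM in the same order. Against WT, 8 of these 8 rose in Dnmt1 KO and 6 in the double knockout (7 and 3 averaged). The feeder and primitive endoderm counts stand beside 23.5% and 31.9% of all tested genes that rose. Their averaged counts stand beside 2288 of 12892 genes called in either direction in Dnmt1 KO and 21.6% that rose in the double knockout. The 7 trophoblast markers measured summed to 180 to 281 RPM, 198 to 217 RPM and 216 to 252 RPM. The summed feeder and primitive endoderm markers were thus higher in both knockouts than in WT, whereas most glycolysis genes called against WT fell. The part of these markers in the results below was not tested. In bulk samples fewer cells of a type and less RNA per cell cannot be told apart.

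Per length of merged exons, Aldoa was the most abundant of the 10 in WT at 274 ± 24.0 RPM per kb (SD, n = 8). Pgk1 followed at 235 ± 54.9, Ldha at 182 ± 35.4, Slc2a3 at 140 ± 12 and Slc2a1 at 124 ± 16.3 RPM per kb. The ranges of each of these neighbours over the 8 libraries overlapped. Pdk1 (28.9 ± 4.25 RPM per kb) and Hk2 (21.6 ± 2.10) overlapped too, and stood below the first 5 and above Pfkp (8.25 ± 1.65). Mbd2 (3.82 ± 0.203 RPM per kb) and Hk1 (2.09 ± 0.405) were the least abundant and did not overlap with each other or with Pfkp. With the longest transcript as the length, Ldha came before Pgk1 and the rest of the order was as given.

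Mbd2 (ENSMUSG00000024513, chr18:70727843-70785785, plus strand, 7 exons in its longest transcript; coordinates here and for the other genes are in NCBIM37) rose in Dicer/Dnmt1 KO. Its level was 3.48 to 3.72 log2 RPM in the 8 WT libraries (median 3.63). In Dnmt1 KO it was 3.71, 3.72, 3.56 and 3.45 log2 RPM in libraries 1A, 1B, 2A and 2B, and in Dicer/Dnmt1 KO 4.09, 4.09, 4.10 and 4.24. Each Dicer/Dnmt1 KO library was above each of the 12 others, while the WT and Dnmt1 KO libraries covered nearly the same range. The double knockout was 1.43-fold above WT (log2 fold change 0.52 ± 0.07, SE; limma adjusted p = 1.19e-05) and 1.43-fold above Dnmt1 KO (0.52 ± 0.08; limma adjusted p = 0.000154). The difference between Dnmt1 KO and WT was -0.01 on the log2 scale, with a 95% confidence interval of -0.16 to 0.15 (limma adjusted p = 0.963). Without WT 4A and WT 4B the rise above WT was 0.51.

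**Figure D1:**
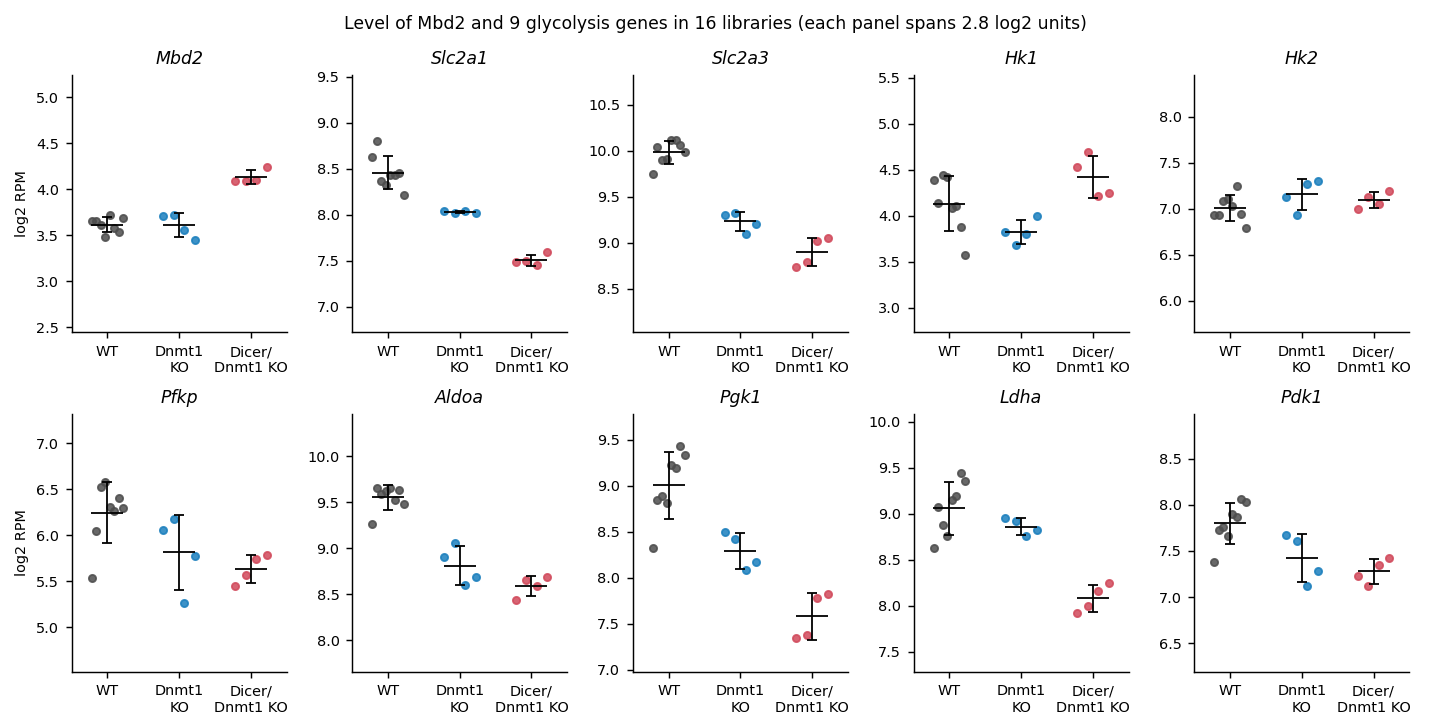
Level of each of the 10 genes in log2 RPM (vertical axis) in the 3 groups (horizontal axis). Points are libraries, from left to right in the order of their labels, long bars the mean and whiskers the SD; each panel spans the same number of log2 units. Mbd2 sits at 4.09 to 4.24 in Dicer/Dnmt1 KO, above the other 12 libraries, whereas Slc2a1, Slc2a3, Pgk1 and Ldha are lowest there.

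The glucose transporters fell in both knockouts. Slc2a1 (ENSMUSG00000028645, chr4:118781316-118809935, plus strand, 10 exons) lay at 8.22 to 8.80 log2 RPM in WT (median 8.43), at 8.04, 8.02, 8.04 and 8.02 in Dnmt1 KO and at 7.48, 7.50, 7.45 and 7.59 in Dicer/Dnmt1 KO. The 3 groups did not overlap. Slc2a1 was 1.34-fold lower in Dnmt1 KO than in WT (log2 fold change -0.43 ± 0.09; limma adjusted p = 0.000819, or 0.0572 with libraries A and B of a number averaged) and 1.93-fold lower in Dicer/Dnmt1 KO (-0.95 ± 0.09; limma adjusted p = 7.36e-08). The further step from Dnmt1 KO to the double knockout was -0.53 ± 0.10 on the log2 scale (limma adjusted p = 0.000634, or 0.0635 when averaged).

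Slc2a3 (ENSMUSG00000003153, chr6:122677827-122751658, minus strand, 9 exons), the transporter of higher glucose affinity, lay at 9.74 to 10.12 log2 RPM in WT (median 10.01). In Dnmt1 KO its levels were 9.31, 9.32, 9.10 and 9.21 log2 RPM, and in Dicer/Dnmt1 KO 8.74, 8.79, 9.01 and 9.05, again without overlap between groups. It was 1.68-fold lower in Dnmt1 KO than in WT (-0.75 ± 0.09; limma adjusted p = 3.09e-06) and 2.12-fold lower in the double knockout (-1.09 ± 0.09; limma adjusted p = 1.59e-08). The step between the knockouts, -0.33 ± 0.10 on the log2 scale (limma adjusted p = 0.0157), was not past the threshold with A and B averaged (adjusted p = 0.217), with an estimated correlation of A and B (adjusted p = 0.108), without a filter on low values (adjusted p = 0.112), with quantile normalization (-0.16, adjusted p = 0.234), without Dicer/Dnmt1 KO 1A (-0.28, adjusted p = 0.0616) or without Dicer/Dnmt1 KO 1B (-0.30, adjusted p = 0.054).

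The hexokinases behaved differently from the rest. Hk2 (ENSMUSG00000000628, chr6:82675019-82724448, minus strand, 18 exons), the main hexokinase message in these cells, lay at 6.79 to 7.24 log2 RPM in WT (median 6.98), at 7.13, 6.93, 7.27 and 7.30 in Dnmt1 KO and at 7.0, 7.13, 7.06 and 7.20 in Dicer/Dnmt1 KO. The groups overlapped in each comparison. The difference from WT was 0.15 on the log2 scale in Dnmt1 KO (95% confidence interval -0.03 to 0.33; limma adjusted p = 0.176) and 0.09 in Dicer/Dnmt1 KO (-0.09 to 0.27; limma adjusted p = 0.384). Between the knockouts it was -0.06 (-0.27 to 0.15). The intervals against WT leave out a fall of the size seen in Slc2a1.

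Hk1 (ENSMUSG00000037012, chr10:61731603-61842656, minus strand, 18 exons), the widely expressed hexokinase, lay at 3.57 to 4.44 log2 RPM in WT (median 4.12), with WT 4B lowest. Its levels were 3.82, 3.68, 3.80 and 3.99 log2 RPM in Dnmt1 KO and 4.52, 4.69, 4.22 and 4.25 in Dicer/Dnmt1 KO. The knockout groups did not overlap with each other, but both overlapped with WT. Hk1 was 1.51-fold higher in Dicer/Dnmt1 KO than in Dnmt1 KO (log2 fold change 0.60 ± 0.16; limma adjusted p = 0.00869), which was not past the threshold with A and B averaged (adjusted p = 0.118), and the difference was 0.39 once the trend with transcript length was removed. Against WT, Hk1 differed by -0.30 ± 0.14 in Dnmt1 KO (limma adjusted p = 0.0946) and by 0.29 ± 0.14 in Dicer/Dnmt1 KO (limma adjusted p = 0.0799) on the log2 scale. With the length trend removed, these differences were -0.41 (adjusted p = 0.00125) and -0.02 (adjusted p = 0.863). Without WT 4A and WT 4B they were -0.44 (adjusted p = 0.00282) and 0.16 (adjusted p = 0.206). Leaving out WT 4B alone gave -0.38 in Dnmt1 KO (adjusted p = 0.0131), and leaving out WT 1A, WT 2A or WT 2B gave 0.33, 0.34 and 0.33 in Dicer/Dnmt1 KO (adjusted p = 0.0491, 0.0445 and 0.0492). Median centring and quantile normalization each gave -0.35 in Dnmt1 KO against WT (limma adjusted p = 0.0412 and 0.0425).

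Pfkp (ENSMUSG00000021196, chr13:6579014-6648023, minus strand, 16 exons), the platelet-type phosphofructokinase, varied widely between libraries. It lay at 5.54 to 6.58 log2 RPM in WT (median 6.31, WT 1A lowest), at 6.05, 6.18, 5.26 and 5.77 in Dnmt1 KO and at 5.45, 5.56, 5.74 and 5.79 in Dicer/Dnmt1 KO. All 3 groups overlapped. Pfkp was 1.53-fold lower in Dicer/Dnmt1 KO than in WT (log2 fold change -0.61 ± 0.17; limma adjusted p = 0.00562, or 0.0524 with A and B averaged), and -0.96 on the log2 scale with the length trend removed. The difference of -0.43 ± 0.17 in Dnmt1 KO did not pass the threshold (limma adjusted p = 0.0556). It did so without WT 1A (-0.53, adjusted p = 0.00527), without Dnmt1 KO 1A (-0.51, adjusted p = 0.0468) and without Dnmt1 KO 1B (-0.55, adjusted p = 0.0274). The scaling mattered too. The limma adjusted p was 0.0357 with median centring (-0.48), 0.0437 with quantile normalization (-0.45) and 0.0414 with the length trend removed (-0.55). The knockouts differed by -0.18 on the log2 scale (95% confidence interval -0.60 to 0.24).

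Aldoa (ENSMUSG00000030695, chr7:133938748-133944265, minus strand, 10 exons), which splits fructose bisphosphate, fell in both knockouts. It lay at 9.26 to 9.66 log2 RPM in WT (median 9.60), at 8.91, 9.06, 8.60 and 8.68 in Dnmt1 KO and at 8.43, 8.65, 8.59 and 8.68 in Dicer/Dnmt1 KO. Both knockouts lay below all WT libraries and overlapped with each other. Aldoa was 1.67-fold lower in Dnmt1 KO (-0.74 ± 0.10; limma adjusted p = 9.76e-06) and 1.95-fold lower in Dicer/Dnmt1 KO (-0.96 ± 0.10; limma adjusted p = 2.05e-07) than in WT. Between the knockouts it differed by -0.22 on the log2 scale (95% confidence interval -0.45 to 0.01; limma adjusted p = 0.126).

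Pgk1 (ENSMUSG00000062070, chrX:103382439-103399038, plus strand, 11 exons), which makes the first ATP of the pathway, fell in both knockouts. It lay at 8.32 to 9.43 log2 RPM in WT (median 9.04), at 8.50, 8.41, 8.09 and 8.17 in Dnmt1 KO and at 7.34, 7.38, 7.78 and 7.83 in Dicer/Dnmt1 KO. The double knockout lay below all other libraries, while Dnmt1 KO overlapped with WT through WT 1A. Pgk1 was 2.68-fold lower in Dicer/Dnmt1 KO than in WT (log2 fold change -1.42 ± 0.17; limma adjusted p = 1.62e-06). It was 1.64-fold lower in Dnmt1 KO than in WT (-0.71 ± 0.17; limma adjusted p = 0.0026, or 0.0596 with A and B averaged) and 1.64-fold lower in the double knockout than in Dnmt1 KO (-0.71 ± 0.19; limma adjusted p = 0.00871, or 0.118 averaged). The fall in Dnmt1 KO was -0.42 against WT numbers 1 and 2 alone and -1.0 against numbers 3 and 4 alone. Processed copies of Pgk1, Aldoa and Ldha exist in the mouse genome, and how reads shared with them were placed could affect these levels.

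Ldha (ENSMUSG00000063229, chr7:54096845-54110997, plus strand, 8 exons) fell in Dicer/Dnmt1 KO. It lay at 8.63 to 9.44 log2 RPM in WT (median 9.11), at 8.95, 8.92, 8.75 and 8.82 in Dnmt1 KO and at 7.93, 8.0, 8.16 and 8.24 in Dicer/Dnmt1 KO. The Dnmt1 KO libraries lay inside the WT range and the double knockout below all others. Ldha was 1.97-fold lower in Dicer/Dnmt1 KO than in WT (log2 fold change -0.97 ± 0.13; limma adjusted p = 5.59e-06) and 1.71-fold lower than in Dnmt1 KO (-0.78 ± 0.15; limma adjusted p = 0.000665). Its difference between Dnmt1 KO and WT was -0.20 on the log2 scale (95% confidence interval -0.47 to 0.07; limma adjusted p = 0.231). That difference was 0.03 against WT numbers 1 and 2 alone and -0.43 against numbers 3 and 4 alone (adjusted p = 0.00138).

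Pdk1 (ENSMUSG00000006494, chr2:71711281-71741915, plus strand, 11 exons) lay at 7.38 to 8.06 log2 RPM in WT (median 7.81), at 7.67, 7.61, 7.12 and 7.29 in Dnmt1 KO and at 7.23, 7.12, 7.35 and 7.43 in Dicer/Dnmt1 KO. All groups overlapped. It was 1.43-fold lower in Dicer/Dnmt1 KO than in WT (-0.52 ± 0.12; limma adjusted p = 0.00145), and -0.80 on the log2 scale with the length trend removed. In Dnmt1 KO it was 1.30-fold lower (-0.38 ± 0.12; limma adjusted p = 0.0201), a call lost with A and B averaged (adjusted p = 0.167), with the correlation of A and B estimated (adjusted p = 0.0849), without Dnmt1 KO 2A (-0.28, adjusted p = 0.11) and without Dnmt1 KO 2B (-0.33, adjusted p = 0.0746). The knockouts differed by -0.14 (95% confidence interval -0.44 to 0.16) on the log2 scale.

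Across the 10 genes, 5 fell and none rose in Dnmt1 KO against WT (Slc2a1, Slc2a3, Aldoa, Pgk1 and Pdk1), a comparison in which 17.5% of the 12892 tested genes fell and 23.5% rose. In Dicer/Dnmt1 KO against WT, 7 fell (Slc2a1, Slc2a3, Pfkp, Aldoa, Pgk1, Ldha and Pdk1) and Mbd2 rose, with 30.1% and 31.9% of all tested genes called. In Dicer/Dnmt1 KO against Dnmt1 KO, 4 fell (Slc2a1, Slc2a3, Pgk1 and Ldha) and 2 rose (Mbd2 and Hk1), where 19.4% and 16.9% of all tested genes were called. For the 9 genes other than Mbd2, the median log2 fold change was -0.43, -0.95 and -0.22 in the 3 comparisons, beside 0.04, 0.02 and -0.01 over all tested genes. Libraries of the groups did not overlap for 3 genes that were lower in Dnmt1 KO than in WT (8.43% of all tested genes) and for none that was higher (14.8%). For Dicer/Dnmt1 KO against WT this held for 5 lower genes (18.9%) and for Mbd2 (22.6% higher), and between the knockouts for 4 lower genes (22.3%) and 2 higher ones (20.8%). The comparisons with WT share the WT libraries.

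Libraries with the same number resembled each other, with an estimated correlation of 0.667. With A and B averaged, 2 genes (Slc2a3 and Aldoa) fell in Dnmt1 KO against WT, where 6.74% of all tested genes fell. In Dicer/Dnmt1 KO against WT, 6 fell (18.2% of all) and Mbd2 rose (21.6%), and between the knockouts Ldha fell (4.22%) and Mbd2 rose (5.28%). Mbd2 in both comparisons with the double knockout, and Slc2a1, Slc2a3, Aldoa, Pgk1, Ldha and Pdk1 in Dicer/Dnmt1 KO against WT, were therefore also called with numbers as replicates. Without WT 4A and WT 4B, 6 genes fell in Dnmt1 KO (20.4% of all tested genes) and 7 in the double knockout (30.3%) against WT. WT 1A was the lowest WT library for 6 of the 10 genes. Without WT 1A and WT 1B, 6 (18.5% of all) and 7 (31.3%) genes fell.

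**Figure D2:**
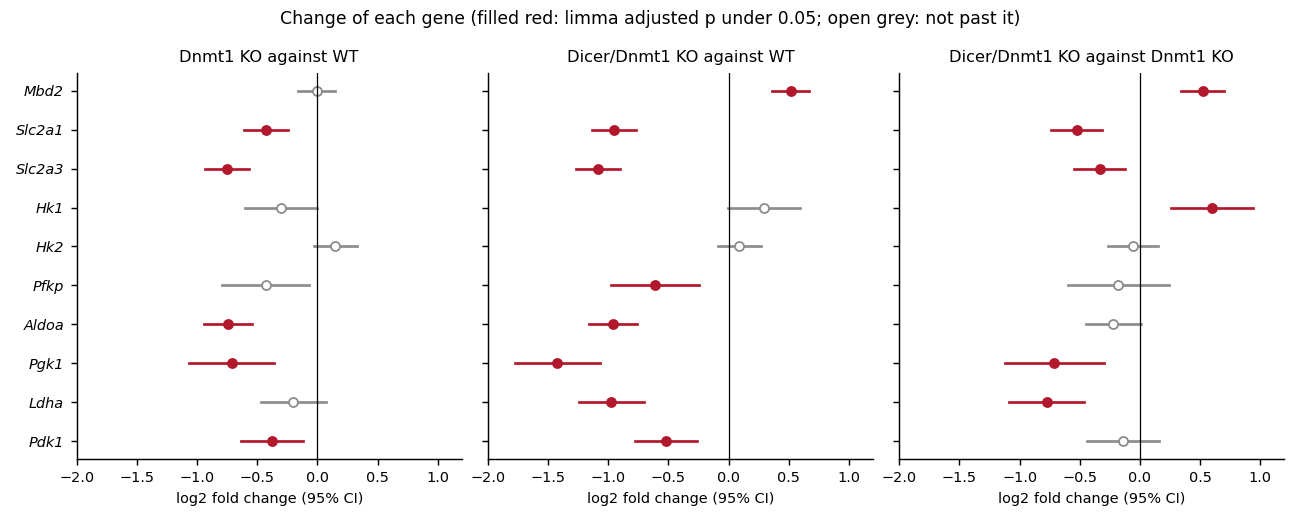
Log2 fold change (horizontal axis) of each of the 10 genes in the 3 comparisons (panels), with 95% confidence intervals from limma. Filled red points passed the threshold. Mbd2 lies at -0.01, 0.52 and 0.52, Pgk1 at -0.71, -1.42 and -0.71, and the interval of Hk2 crosses 0 in each panel.

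Summed over the 9 genes, glucose transporters and enzymes took 2934 to 4086 RPM in WT, 2247 to 2660 RPM in Dnmt1 KO and 1702 to 2056 RPM in Dicer/Dnmt1 KO, with no overlap between groups. WT 1A was lowest and WT 4A highest of WT. With the 19 other genes of the pathway the sum was 6257 to 8244 RPM, 4735 to 5590 RPM and 3697 to 4113 RPM. These sums are means of 0.737%, 0.517% and 0.389% of all reads.

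Paralogs were compared as ratios within a library, which do not depend on the library's scaling. The log2 ratio of Ldha, the form that favours lactate, to Ldhb, the form that favours pyruvate, was 2.10 to 3.17 in WT, 3.79, 3.89, 4.08 and 4.06 in Dnmt1 KO and 2.34, 2.24, 2.84 and 2.85 in Dicer/Dnmt1 KO. Dnmt1 KO lay above both other groups, and the double knockout within the WT range. The difference between Dnmt1 KO and WT was 1.43 (two-sided exact permutation p = 0.00404, adjusted over 12 ratios and comparisons p = 0.0242). Ldhb itself was 6.27 to 6.67 log2 RPM in WT and 5.16, 5.02, 4.68 and 4.75 in Dnmt1 KO (log2 fold change -1.63 ± 0.10; limma adjusted p = 2.64e-09). In Dicer/Dnmt1 KO it was 5.59, 5.76, 5.32 and 5.39 (-1.01 ± 0.10 against WT; limma adjusted p = 3.02e-07). In Dnmt1 KO, Ldhb fell while Ldha stayed within the WT range, and in the double knockout both were lower than in every WT library.

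The log2 ratio of Hk2 to Hk1 was 2.55 to 3.22 in WT, 3.30, 3.25, 3.47 and 3.31 in Dnmt1 KO and 2.47, 2.44, 2.84 and 2.95 in Dicer/Dnmt1 KO. It was higher in Dnmt1 KO than in WT by 0.45 (exact permutation p = 0.00404, adjusted p = 0.0242). The knockouts differed by -0.66 for Hk2 to Hk1 and by -1.39 for Ldha to Ldhb, without overlap. Both calls of Dnmt1 KO against WT were lost without any 1 of its 4 libraries (adjusted p = 0.0727 in each case), at differences of 0.41 to 0.48 for Hk2 to Hk1 and 1.39 to 1.48 for Ldha to Ldhb, and without WT 4A and WT 4B (0.54 and 1.61, adjusted p = 0.0571). With 4 libraries against 4, the smallest p the exact permutation test allows is 0.0286, and both reached it (adjusted p = 0.0857). Slc2a3 to Slc2a1 differed by -0.33 in Dnmt1 KO against WT (exact permutation p = 0.0364, adjusted p = 0.0873), and Pfkp to Pfkl by 0.32 in Dicer/Dnmt1 KO against WT (exact permutation p = 0.0485, adjusted p = 0.097). Neither passed the adjusted threshold.

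**Figure D3:**
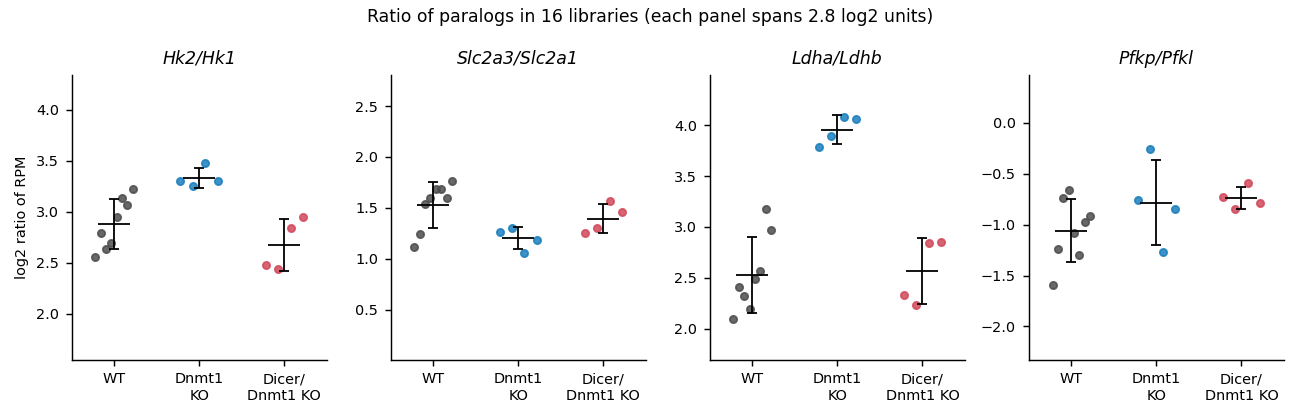
Log2 ratio of RPM of 4 pairs of paralogs (vertical axis) in the 3 groups (horizontal axis). Points are libraries, long bars the mean and whiskers the SD. Ldha/Ldhb reaches 3.79 to 4.08 in Dnmt1 KO and stays at 2.24 to 2.85 in Dicer/Dnmt1 KO.

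Of 19 further glycolytic genes 13 were tested. In Dnmt1 KO against WT, 8 fell (beside 17.5% of all tested genes), 1 rose and 4 were not called, with a median log2 fold change of -0.47. For the double knockout against WT, 11 fell (beside 30.1%), 1 rose and 1 was not called (median -0.75), and between the knockouts 5 fell (beside 19.4%) and 8 were not called (median -0.18). With A and B averaged, 7, 10 and none of the 13 fell in these comparisons, beside 6.74%, 18.2% and 4.22% of all tested genes. Pkm, the pyruvate kinase, was listed as Pkm2 at 10.72 to 11.29 log2 RPM in WT, 10.76, 10.64, 10.43 and 10.45 in Dnmt1 KO and 10.09, 10.10, 9.93 and 10.05 in Dicer/Dnmt1 KO. It fell by 1.00 ± 0.12 on the log2 scale in the double knockout (limma adjusted p = 1.62e-06) and by 0.48 ± 0.12 in Dnmt1 KO (limma adjusted p = 0.00372, or 0.0976 with A and B averaged) against WT.

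Aldoc, a minor aldolase here, was 3.52 to 4.17 log2 RPM in WT, 2.32, 2.49, 1.68 and 1.83 in Dnmt1 KO and 1.80, 2.19, 2.22 and 1.92 in Dicer/Dnmt1 KO. It fell by 1.85 ± 0.15 (limma adjusted p = 2.99e-08) and 1.89 ± 0.15 (limma adjusted p = 9.27e-09) on the log2 scale against WT. Eno3, the muscle-type enolase, was the exception that rose. It was 3.21 to 3.99 log2 RPM in WT, 4.74, 4.28, 4.49 and 4.65 in Dnmt1 KO (0.99 ± 0.13; limma adjusted p = 1.55e-05) and 4.75, 4.77, 4.80 and 4.88 in Dicer/Dnmt1 KO (1.25 ± 0.13; limma adjusted p = 4.76e-07). Per length of merged exons, Eno3 made up 6.47% ± 1.30 (SD, n = 8) of the enolase message in WT, 15.6% ± 2.10 (n = 4) in Dnmt1 KO and 23.1% ± 1.09 (n = 4) in Dicer/Dnmt1 KO, beside Eno1 and Eno2.

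Carriers of lactate differed between the knockouts. Slc16a3, a lactate exporter, was 5.49 to 5.98 log2 RPM in WT, 5.75, 5.75, 5.59 and 5.69 in Dnmt1 KO and 4.55, 4.63, 4.72 and 4.93 in Dicer/Dnmt1 KO. It fell by 1.00 ± 0.10 against WT (limma adjusted p = 1.72e-07) and by 0.99 ± 0.11 against Dnmt1 KO (limma adjusted p = 6.25e-06) on the log2 scale in the double knockout, and was not called in Dnmt1 KO (-0.02 ± 0.10). Of 12 carriers besides the 2 members, 6 were tested. Against WT, 1 rose and 1 fell in Dnmt1 KO (beside 23.5% and 17.5% of all tested genes), and 2 rose and 3 fell in Dicer/Dnmt1 KO (beside 31.9% and 30.1%). With A and B averaged, 2 fell in the latter comparison (beside 18.2%) and none was called in the former. Slc2a4, the insulin-responsive transporter, was 0.18, 0.53, 0.50 and 0.86 log2 RPM in the double knockout, beside 0.13, -0.13, -0.57 and 0.00 in Dnmt1 KO (0.66 ± 0.22; limma adjusted p = 0.027, or 0.167 with A and B averaged).

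**Figure D4:**
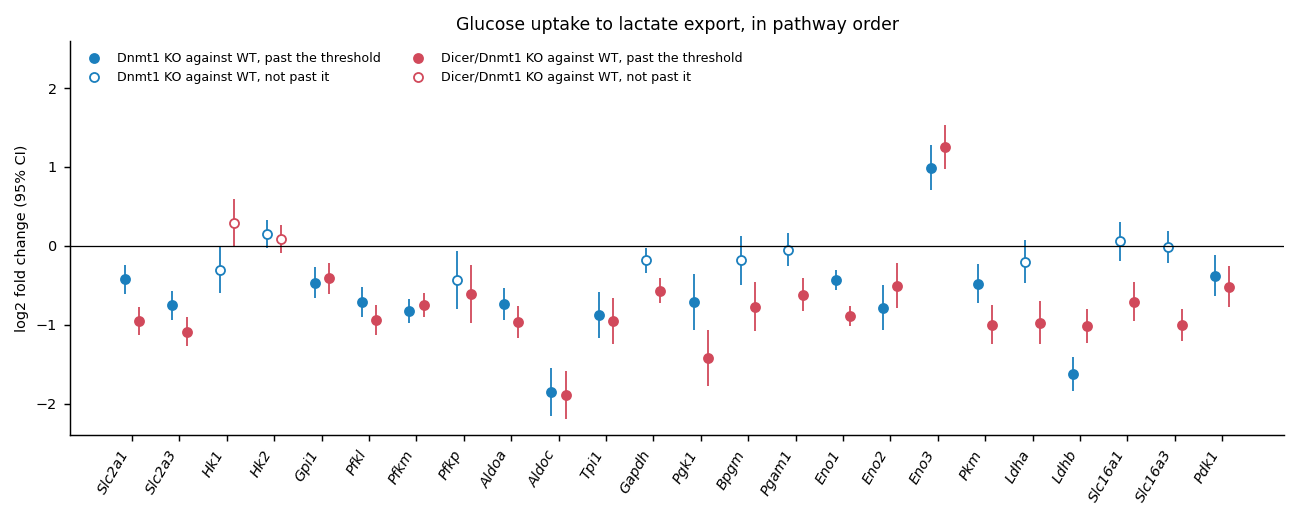
Log2 fold change against WT (vertical axis, with 95% confidence intervals) of the glucose transporters, the tested enzymes, the lactate carriers and Pdk1 in pathway order (horizontal axis). Blue is Dnmt1 KO and red Dicer/Dnmt1 KO; filled points passed the threshold. Most points lie below 0, Eno3 lies at 0.99 and 1.25, and Ldha and Slc16a3 are among the genes filled in red but not in blue.

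Regulators and side branches were mixed. Of 9 tested regulators, 3 rose and 4 fell in Dnmt1 KO, and 3 rose and 4 fell in Dicer/Dnmt1 KO, against WT. Of all tested genes, 23.5% rose and 17.5% fell in the former comparison, and 31.9% rose and 30.1% fell in the latter. Fbp2, a fructose bisphosphatase that runs against Pfk, lay between -3.62 and 0.54 log2 RPM in WT, at 2.12, 2.03, 2.34 and 2.36 in Dnmt1 KO and at 0.77, 1.31, 0.72 and 0.61 in Dicer/Dnmt1 KO. It was higher in both knockouts than in every WT library (limma adjusted p = 0.000104 and 0.00235), with few reads in some WT libraries. Of 7 pentose phosphate genes, 2 rose and 2 fell in Dnmt1 KO, 2 rose and 4 fell in Dicer/Dnmt1 KO, and none was called between the knockouts with limma. With A and B averaged, 1 rose in Dnmt1 KO and 2 rose in Dicer/Dnmt1 KO against WT, and none fell. When averaged, 2288 of 12892 genes were called in either direction in Dnmt1 KO and 6.74% fell. In Dicer/Dnmt1 KO 21.6% rose and 18.2% fell. Rpia, which makes ribose phosphate, was 2.41 to 2.88 log2 RPM in WT, 4.56, 4.20, 4.60 and 4.51 in Dnmt1 KO (1.85 ± 0.12; limma adjusted p = 3.97e-09) and 4.03, 3.76, 4.51 and 4.27 in Dicer/Dnmt1 KO (1.53 ± 0.12; limma adjusted p = 1.48e-08).

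Of 13 genes of pyruvate entry into mitochondria besides Pdk1, 1 rose and 5 fell in Dnmt1 KO (beside 23.5% and 17.5% of all tested genes). In Dicer/Dnmt1 KO 2 rose and 4 fell (beside 31.9% and 30.1%). The medians against WT were 0.01 and -0.06 on the log2 scale. Pdk4, a kinase like Pdk1, was 2.79 to 3.40 log2 RPM in WT, 1.99, 2.51, 1.66 and 1.46 in Dnmt1 KO (-1.15 ± 0.18; limma adjusted p = 5.45e-05) and 2.62, 2.38, 2.39 and 1.88 in Dicer/Dnmt1 KO (-0.74 ± 0.18; limma adjusted p = 0.00143). Pdk2, a further kinase of that family, was low throughout. It was -1.34, -0.57, -0.82 and -1.58 log2 RPM in Dnmt1 KO and 0.15, 0.59, -0.21 and -0.45 in Dicer/Dnmt1 KO, a difference of 1.10 ± 0.32 (limma adjusted p = 0.0118, or 0.0866 with A and B averaged).

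Of 12 tested Myc family and hypoxia factors, 4 rose and 4 fell in Dnmt1 KO against WT (beside 23.5% and 17.5% of all tested genes). In the double knockout 5 rose and 4 fell against WT (beside 31.9% and 30.1%). With A and B averaged, 4 rose and 3 fell in Dnmt1 KO, where 2288 of 12892 genes were called in either direction and 6.74% fell. In the double knockout 3 rose and 2 fell when averaged (beside 21.6% and 18.2%). Myc was 1.24 to 2.08 log2 RPM in WT (median 1.38), 3.15, 3.32, 3.83 and 3.45 in Dnmt1 KO and 2.28, 1.89, 1.06 and 1.65 in the double knockout. It rose by 1.91 ± 0.20 on the log2 scale in Dnmt1 KO (limma adjusted p = 1.1e-06), and in the double knockout it overlapped with WT (0.20 ± 0.20; limma adjusted p = 0.397) and fell by 1.71 ± 0.23 against Dnmt1 KO (limma adjusted p = 3.27e-05). Mycn, the more abundant Myc family message in these libraries, was 5.90 to 6.31 log2 RPM in WT, 5.57, 5.62, 5.47 and 5.45 in Dnmt1 KO and 5.69, 5.78, 5.62 and 5.63 in Dicer/Dnmt1 KO. Against WT it fell by 0.62 ± 0.08 (limma adjusted p = 5.9e-06) and 0.46 ± 0.08 (limma adjusted p = 5.36e-05). Hif1a, the oxygen-sensitive factor, was 6.24 to 6.41 log2 RPM in WT and rose by 0.40 ± 0.06 in Dnmt1 KO (limma adjusted p = 4.2e-05) and 0.30 ± 0.06 in Dicer/Dnmt1 KO (limma adjusted p = 0.000338). The latter was 0.12 with the length trend removed (adjusted p = 0.0862).

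Of 12 tested hypoxia targets outside glycolysis, 4 fell and none rose in Dnmt1 KO against WT (beside 17.5% and 23.5% of all tested genes). In Dicer/Dnmt1 KO against WT, 6 fell and 1 rose (beside 30.1% and 31.9%). Between the knockouts 4 fell and 2 rose (beside 19.4% and 16.9%). With A and B averaged, 4, 5 and 1 fell (beside 6.74%, 18.2% and 4.22% of all tested genes) and none rose. Vegfa, an angiogenic growth factor, was 4.41 to 4.78 log2 RPM in WT and 3.02 to 3.76 in the 8 knockout libraries (-1.09 ± 0.11 and -1.06 ± 0.11; limma adjusted p = 4.98e-07 and 3.05e-07). Bnip3, a mitophagy receptor, was 5.03 to 6.35 log2 RPM in WT, 5.03, 5.35, 4.31 and 4.55 in Dnmt1 KO and 4.22, 4.49, 4.87 and 4.95 in Dicer/Dnmt1 KO. Against WT it fell in Dicer/Dnmt1 KO (-1.34 ± 0.22, limma adjusted p = 4.7e-05). Bnip3 was also called lower in Dnmt1 KO than in WT, and was not called between the knockouts. Ddit4, an inhibitor of mTOR signalling, was 4.42, 4.64, 4.25 and 4.29 log2 RPM in Dnmt1 KO and 3.48, 3.46, 3.88 and 3.67 in Dicer/Dnmt1 KO (-0.78 ± 0.15; limma adjusted p = 0.000668). Higd1a, a mitochondrial protein, was 4.87, 4.59, 4.29 and 4.45 beside 3.51, 3.44, 4.06 and 4.13 log2 RPM in the same groups (-0.77 ± 0.26; limma adjusted p = 0.0281, or 0.175 with A and B averaged).

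**Figure D5:**
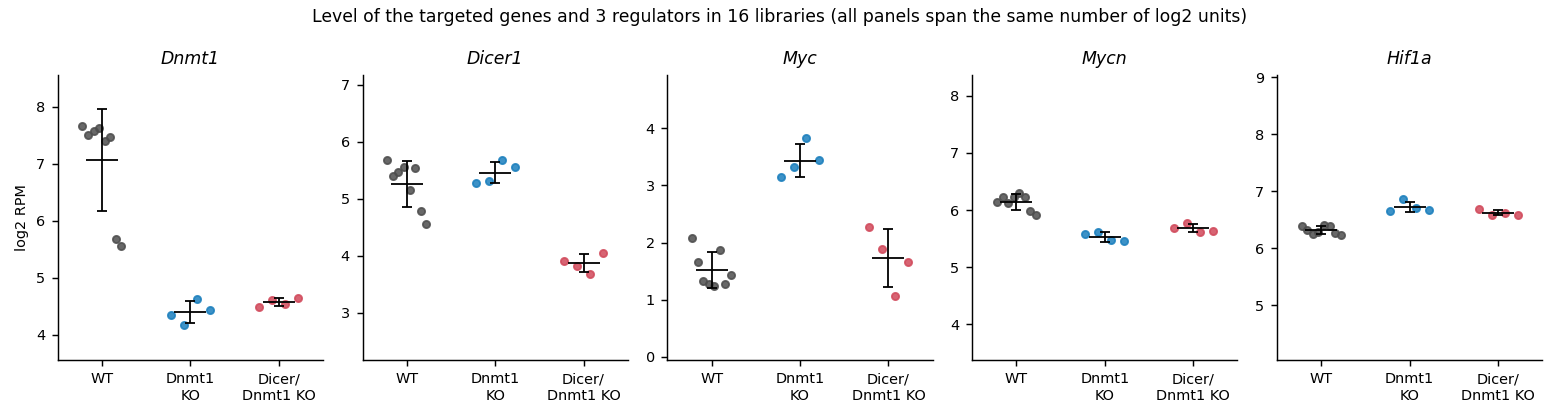
Level in log2 RPM (vertical axis) of Dnmt1, Dicer1, Myc, Mycn and Hif1a in the 3 groups (horizontal axis). Points are libraries, long bars the mean and whiskers the SD. Dnmt1 is at 5.69 and 5.55 in WT 4A and WT 4B, and Myc is at 3.15 to 3.83 in Dnmt1 KO and at 1.06 to 2.28 in Dicer/Dnmt1 KO.

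Other genes of the same family, and of the NuRD complex, were set beside Mbd2. Mbd3, the NuRD subunit closest to Mbd2, was 3.80 to 4.24 log2 RPM in WT, 4.58, 4.21, 4.90 and 4.77 in Dnmt1 KO (0.53 ± 0.12; limma adjusted p = 0.0015) and 4.08, 4.31, 3.96 and 4.05 in Dicer/Dnmt1 KO (0.01 ± 0.12; limma adjusted p = 0.949). Mbd1 and Mbd4, the latter a glycosylase, differed by 0.10 or less from WT in the double knockout and by 0.16 and -0.08 in Dnmt1 KO on the log2 scale, and were not called in any comparison. Of 11 NuRD subunits, 2 rose and none fell in Dnmt1 KO and 4 rose and 2 fell in Dicer/Dnmt1 KO against WT, beside 23.5% and 31.9% of all tested genes that rose. With A and B averaged, none rose in Dnmt1 KO, where 2288 of 12892 genes were called in either direction. In the double knockout 2 rose and 2 fell when averaged (beside 21.6% and 18.2% of all tested genes). Chd3, a remodelling ATPase of the complex, was 4.29, 4.40, 4.18 and 4.00 log2 RPM in the double knockout, above 2.55 to 3.48 in WT (1.22 ± 0.15; limma adjusted p = 1.74e-06).

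The promoters of the glycolysis genes were searched for ACGTG and for CACGTG, the E-box of Myc family factors. ACGTG is 1 form of the core RCGTG (R is A or G) that hypoxia-inducible factors recognize. The form GCGTG was not searched for, so a window without ACGTG may still hold a core. Windows ran from 250 bases before to 50 after each start in RefSeq (GRCm38.p6), both strands were read, and a CACGTG counts as 2 overlapping ACGTG matches, 1 on each strand. Promoters were found for 8 of the 10 genes (not for Mbd2 and Slc2a3), with 13 starts in all. ACGTG was present in at least 1 start of 6 of these 8 genes, and in 21.8% of 27025 genes. It was in 7 of 13 starts, beside 19.6% of 32851 promoters. The first start of Ldha held 5 matches, which include 2 CACGTG (in 7.15% of all promoters), Pgk1 held 2 and Slc2a1 held 1, and these genes were lower in Dicer/Dnmt1 KO than in WT. Aldoa, also lower, held 1 match, which lay where the windows of some of its starts overlap and was counted for each of them. Hk2 held 2, and Hk1 held 2 at 1 of its starts, and neither was called against WT. Pfkp and Pdk1, which were lower in Dicer/Dnmt1 KO than in WT, held no ACGTG. The windows of Ldha (chr7:46845554-46845853, plus strand), Pgk1 (chrX:106186850-106187149, plus strand), Slc2a1 (chr4:119108495-119108794, plus strand) and Hk2 (chr6:82774405-82774704, minus strand) are shown so that their matches can be compared, with the matches in capitals.
Ldha: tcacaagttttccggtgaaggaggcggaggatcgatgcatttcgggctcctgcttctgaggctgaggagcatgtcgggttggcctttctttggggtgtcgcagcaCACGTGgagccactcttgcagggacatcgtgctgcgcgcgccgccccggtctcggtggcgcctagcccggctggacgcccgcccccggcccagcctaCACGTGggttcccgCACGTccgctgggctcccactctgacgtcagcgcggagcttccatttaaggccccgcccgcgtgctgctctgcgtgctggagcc
Pgk1: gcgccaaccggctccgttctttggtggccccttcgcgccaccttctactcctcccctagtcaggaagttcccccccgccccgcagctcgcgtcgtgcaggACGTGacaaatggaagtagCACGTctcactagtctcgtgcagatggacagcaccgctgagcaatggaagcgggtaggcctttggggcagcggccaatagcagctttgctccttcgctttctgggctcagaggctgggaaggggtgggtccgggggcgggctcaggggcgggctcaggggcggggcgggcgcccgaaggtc
Slc2a1: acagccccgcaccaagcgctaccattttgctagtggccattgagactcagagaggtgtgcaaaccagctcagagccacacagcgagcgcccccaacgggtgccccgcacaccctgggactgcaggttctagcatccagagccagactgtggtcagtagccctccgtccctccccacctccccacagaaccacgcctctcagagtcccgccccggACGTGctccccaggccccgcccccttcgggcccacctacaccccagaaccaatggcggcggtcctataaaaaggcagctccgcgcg
Hk2: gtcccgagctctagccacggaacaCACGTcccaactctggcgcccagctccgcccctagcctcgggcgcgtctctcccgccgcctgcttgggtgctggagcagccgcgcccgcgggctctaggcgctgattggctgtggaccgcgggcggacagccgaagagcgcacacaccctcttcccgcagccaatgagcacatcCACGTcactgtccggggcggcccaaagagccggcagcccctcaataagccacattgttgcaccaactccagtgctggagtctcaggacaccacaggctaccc

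Among the 5 tested genes whose levels followed Mbd2 most closely over the 16 libraries were Tek (Pearson r = 0.965), Uchl1 (0.963), Pafah1b2 (0.952) and Entpd5 (0.944), while the median r with all tested genes was 0.034. Tek, a receptor tyrosine kinase, had a mean of 3.32 log2 RPM in WT, 3.26 in Dnmt1 KO and 4.57 in the double knockout, and Uchl1, a ubiquitin hydrolase, 4.98, 4.94 and 5.78. Both were level between WT and Dnmt1 KO and higher in the double knockout, as Mbd2 was. Among the 10 genes, Mbd2 had r of -0.777 with Slc2a1, -0.775 with Ldha, -0.694 with Pgk1, -0.658 with Slc2a3 and -0.595 with Aldoa. With Pfkp it was -0.449, with Pdk1 -0.431, with Hk2 -0.038 and with Hk1 0.421. Slc2a3 had r of 0.974 with Aldoa and 0.949 with Pgk1. These values describe 16 libraries that fall into 3 groups and share their numbers, so they carry no p-value.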

How the data were processed

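Gene expression was measured in 16 RNA-seq libraries of mouse ESCs. Per the labels' processing notes and the methods, the authors trimmed reads with Trim Galore 0.3.5, aligned them to NCBIM37 with TopHat2 2.0.11, discarded alignments of mapping quality under 20 and deposited log2 RPM from SeqMonk (the authors called genes with DESeq2 and SeqMonk's intensity difference). Genes with no reads are stored as 0.9 read, and of the other values 100% were whole reads on the linear scale (tolerance 0.1%). The table holds 35 columns of other samples, not used here.

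Genes above log2 RPM 0 in at least 4 libraries (12892) were fitted with limma 3.58.1 in R 4.3.3, with 3 group means and an intensity trend, and Benjamini-Hochberg adjusted p-values under 0.05 were called. Intervals are 95% confidence intervals. limma was used because the deposited unit is log2. The fit was tested on simulated data in which libraries varied independently, so that test did not cover the resemblance of A and B. Paralog ratios were compared by two-sided exact permutation tests (SciPy 1.17.1), adjusted over 12. Lengths, sites and coordinates came from GENCODE M1 (NCBIM37), miRNAs and promoters from RefSeq.

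The genes, lists and tests were chosen with earlier results of these data known. Named were the 10 genes, Dnmt1, Dicer1, Myc, Mycn, Hif1a, Pkm, Ldhb, Mbd1, Mbd3 and Mbd4, the 3 largest rises and 3 largest falls per comparison among called, non-overlapping genes of the glycolysis, carrier, regulator, pyruvate, pentose, hypoxia target and NuRD lists, and genes from the 5 most like Mbd2. Some genes that the rule names are not reported here. Alternatives were averaging or correlating libraries A and B, a replicate block, quantile normalization, median centring, a pseudocount of 1 RPM, no filter, the 2 compared groups only, subsets of WT and leaving out each library. Removing the length trend and leaving out WT number 1 were added after seeing the data.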

Additional observations from a re-analysis of the deposited data

Results flagged for a closer look

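Mbd2 in Dicer/Dnmt1 KO 2B stood apart within its group, at 4.24 log2 RPM beside 4.09 to 4.10 in the other 3 libraries. Its gap to the nearest library was 0.950 of the whole range of the group, a range of small absolute size. The rise of Mbd2 against WT was called without this library too.

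Aldoa in WT 1A was 9.26 log2 RPM, beside 9.48 to 9.66 in the other 7 WT libraries. The gap was 0.542 of the range. WT 1A was also the lowest WT library for Slc2a3, Pfkp, Pgk1, Ldha and Pdk1.

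In all, 30 sets of libraries (10 genes in 3 groups) were looked at and 2 held such a value. Chance marks about 1 in 20.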

How the results depend on the processing

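Over 29 alternatives, the 30 differences of the 10 genes gave 870 values: 817 kept direction and side of the threshold, 20 lost a call, 20 gained 1, 13 changed sign without being called, and none reversed. Averaging A and B, which leaves fewer samples, gave 2288, 5134 and 1225 genes changed in Dnmt1 KO against WT, Dicer/Dnmt1 KO against WT and Dicer/Dnmt1 KO against Dnmt1 KO (5289, 7985 and 4682 as reported), with 2, 7 and 2 of the 10. An estimated correlation gave 2723 in the first and 2109 in the last. In Dnmt1 KO against WT, 7 of the 10 fell with median centring, quantile normalization or the length trend removed (5 as reported). Of all tested genes, 21.0%, 22.5% and 22.2% fell in these settings (17.5% as reported). Leaving out 1 library gave 4 to 6, 8 to 9 and 5 to 6 of the 10 (4054 to 5624, 7109 to 8368 and 3690 to 5194 of all 12892). Labels, number and letter together, did not pair the libraries of different groups (12 correlations from -0.42 to 0.37, 4 over 0.1). With number and letter together as a replicate block, 5, 7 and 6 of the 10 changed (5661, 7122 and 5864 of all 12892). Against WT, Hk1 was gained and Pdk1 lost in Dnmt1 KO, and Pfkp was lost in Dicer/Dnmt1 KO. No knockout library shares a label with WT 3A to 4B, so the differences from WT were those against WT numbers 1 and 2 alone.

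The log2 ratios moved with the WT libraries used, and where fewer libraries remain the exact permutation test cannot reach small p-values. In Dnmt1 KO against WT, Hk2/Hk1 and Ldha/Ldhb differed by 0.45 and 1.43 when averaged, by 0.67 and 1.70 against WT numbers 1 and 2, and by 0.54 and 1.61 without number 4, and none of these passed the adjusted threshold. Against numbers 3 and 4 they were 0.24 and 1.15, both past it (adjusted p = 0.0429). Leaving out 1 library gave 0.41 to 0.50 and 1.37 to 1.52. Slc2a3/Slc2a1 in that comparison was -0.48 against WT numbers 3 and 4 and -0.44 without number 1, both past it. In Dicer/Dnmt1 KO against WT, Hk2/Hk1 and Slc2a3/Slc2a1 were 0.0061 and 0.022 against numbers 1 and 2. Against numbers 3 and 4, Hk2/Hk1 was -0.42, Slc2a3/Slc2a1 -0.29, Pfkp/Pfkl 0.33 (each adjusted p = 0.0429) and Ldha/Ldhb -0.23 (adjusted p = 0.405). Ldha/Ldhb was -0.054 without number 1 and -0.057 to 0.147 without 1 library. Between the knockouts, Hk2/Hk1 (-0.66) and Ldha/Ldhb (-1.39) passed when adjusted with numbers 3 and 4 only, whose p-values alone differ, and Pfkp/Pfkl ranged from -0.12 to 0.22 without 1 library. The cause of these shifts was not tested.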
